A study of Mus musculus with 30 samples.

Results

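The integrin and laminin genes were chosen by their symbols, as genes named for an integrin α chain, an integrin β chain or a laminin chain, a rule that used names and no measured value. Of the 55487 genes listed, 36 are described, of which 18 encode integrin α chains, 8 encode integrin β chains and 10 encode laminin chains. They were followed in lung organoids in which freshly isolated EpCAM+ lung cells of wild-type adult C57BL/6J mice were grown with fibroblasts of the CCL206 line, a mouse lung fibroblast line whose division had been blocked with mitomycin. The organoids were seeded with 300000 EpCAM+ cells, exposed for 72 h, and separated again with EpCAM microbeads into an epithelial and a fibroblast fraction before RNA sequencing. The 4 treatments were vehicle, 2 ng/ml TGF-β, an exacerbation cocktail (EC) of IL-6, IL-8, IL-1β and TNFα, and an idiopathic pulmonary fibrosis cocktail (IPFc) of TGF-β, TSLP, TNFα, IL-33, IL-13, CCL2, IL-8, IL-4 and IL-1β. TGF-β was thus part of IPFc and not of EC. The labels name IL-8 in both cocktails, and the study's methods give its mouse counterpart KC as the chemokine of the EC used on mouse cells. Each of the 8 groups of fraction and treatment held 1 library from each of mice 1 to 4, except that epithelial TGF-β had mice 2 to 4 and fibroblast vehicle had mice 1, 3 and 4, which left 15 libraries in each fraction; the library of the remaining mouse in both groups was not analysed here. A fibroblast library carries the number of the mouse whose epithelium shared its culture, and CCL206 is a single line, so the fibroblast libraries are separate cultures of the same cells.

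Integrins are receptors that pair an α with a β chain and bind cells to the matrix and to each other. The αv chain pairs with β1, β3, β5, β6 or β8, and α5 and α8 pair with β1, to give the receptors that recognise the arginine-glycine-aspartate (RGD) motif of fibronectin, vitronectin and tenascin. The αvβ6 receptor is made by epithelium, and it is best known in the lung for binding the RGD motif of latent TGF-β and releasing the active cytokine. Laminins are trimers of an α, a β and a γ chain in basement membranes, where α3β1, α6β1, α7β1 and α6β4 are their main integrin receptors. The α3 and β3 chains are part of the laminin that anchors epithelium through the hemidesmosome, in which α6β4 sits.

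The libraries held between 5113828 and 20317181 counted reads, and the fibroblast EC library of mouse 1 was the shallowest. Marker RNA of the other fraction was present in every library. Its share, taken as the median ratio of fraction marker genes to the paired library of the same culture, was 18.1% ± 6.49 (SD, n = 3) of epithelial RNA in fibroblast vehicle libraries, 40.0% ± 6.59 (n = 4) with EC, 16.2% ± 7.57 (n = 4) with IPFc and 2.11% ± 1.22 (n = 4) with TGF-β. In the opposite direction, fibroblast RNA made up 5.85% ± 2.35 (n = 4) of epithelial vehicle libraries, 11.0% ± 4.07 (n = 4) with EC, 10.3% ± 4.66 (n = 4) with IPFc and 25.4% ± 2.24 (n = 3) with TGF-β. The share moved with treatment in both fractions. The calls of integrin and laminin genes are therefore given with the counts as deposited and after subtraction of the paired library scaled by its share. For single genes the value after subtraction is given in part only. The share counts any marker transcript, whichever cell made it, so a marker gene switched on in the other cell type cannot be told apart from carried RNA. It is also a median, from which single marker lists departed. The 5 alveolar type 2 markers summed to means of 3696 CPM in fibroblast and 6328 CPM in epithelial vehicle libraries, and 3436 and 3864 CPM with EC. The 4 basal cell markers summed to 7.13 and 515 CPM in vehicle. A single share can thus remove too little or too much RNA of one epithelial cell type. In bulk libraries fewer cells of a type and less RNA per cell cannot be told apart either. The fibroblast marker Pdgfra was at a mean of 334 CPM (counts scaled to a common depth) in fibroblast against 19.5 CPM in epithelial vehicle libraries, whereas Thy1 and Dpt reached at most 0.0849 CPM in any library. Ptprc, the pan-leukocyte marker, had a group mean of at most 0.417 CPM, after the CD45+ and CD31+ cells of the lungs had been depleted with beads. Other immune markers were present, since 3 to 5 of the 12 listed had a mean of at least 1 CPM in each group. The 12 summed to means of 322, 525, 288 and 170 CPM in epithelial vehicle, EC, IPFc and TGF-β libraries. In fibroblast libraries the sums were 144, 302, 124 and 34.7 CPM in the same order. Which cells made these transcripts was not tested. The comparisons of one fraction with vehicle share its vehicle libraries. The fibroblast EC library of mouse 1 stood apart from the other EC libraries in Lamc1 and Lama3.

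The 5′ ends of 4 RGD-receptor genes that rose with TGF-β in the epithelial fraction are shown because motifs of the TGF-β pathway could lie there. The sequences are RefSeq promoters of the GRCm38.p6 build, from 250 bases before to 50 bases after the start of transcription, printed in the sense of the gene, so that the last 50 bases are transcribed. RefSeq lists a further start of Itgb6 within the gene, which is not shown. Of the 36 genes, 23 had an entry in this set. Capitals mark the SMAD box, CAGAC on either strand. AP-1 sites (TGANTCA, either strand, no overlap with the SMAD box) were searched too, and none lay in these 4 windows.
Itgb6, chr2:60722554-60722853, minus strand: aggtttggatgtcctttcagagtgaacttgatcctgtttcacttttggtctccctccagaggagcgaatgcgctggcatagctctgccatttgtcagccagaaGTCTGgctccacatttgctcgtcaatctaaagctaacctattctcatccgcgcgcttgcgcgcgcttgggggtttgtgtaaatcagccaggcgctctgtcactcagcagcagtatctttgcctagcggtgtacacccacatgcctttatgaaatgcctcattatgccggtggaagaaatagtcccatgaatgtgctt
Itgav, chr2:83724147-83724446, plus strand: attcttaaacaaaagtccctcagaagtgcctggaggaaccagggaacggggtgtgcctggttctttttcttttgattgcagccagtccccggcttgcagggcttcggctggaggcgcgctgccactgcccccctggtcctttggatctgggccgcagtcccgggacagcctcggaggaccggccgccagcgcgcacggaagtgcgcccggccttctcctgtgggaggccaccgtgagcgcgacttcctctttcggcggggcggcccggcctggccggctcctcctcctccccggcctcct
Itga5, chr15:103366742-103367041, minus strand: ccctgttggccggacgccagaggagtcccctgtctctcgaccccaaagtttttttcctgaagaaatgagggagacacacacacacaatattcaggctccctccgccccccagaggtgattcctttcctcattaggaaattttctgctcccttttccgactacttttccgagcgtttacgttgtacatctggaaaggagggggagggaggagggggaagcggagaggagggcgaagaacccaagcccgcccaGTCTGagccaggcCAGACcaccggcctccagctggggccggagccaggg
Itgb5, chr16:33829415-33829714, plus strand: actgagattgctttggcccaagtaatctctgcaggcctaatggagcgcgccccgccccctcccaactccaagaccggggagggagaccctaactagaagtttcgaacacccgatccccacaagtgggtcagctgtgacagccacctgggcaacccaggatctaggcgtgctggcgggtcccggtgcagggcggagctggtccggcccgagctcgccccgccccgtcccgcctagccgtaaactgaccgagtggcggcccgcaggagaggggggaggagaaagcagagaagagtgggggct
The Itgb6 window held 1 SMAD box that began 147 bases before the start, Itga5 held a pair that began at bases 1 and 14 from it, and the Itgav and Itgb5 windows held none. A SMAD box was present in 49.6% of all 32851 promoters and in 18 of the 26 promoters of integrin and laminin genes. AP-1 letters were present in 7.81% of all promoters and in 3 of these 26. A match is a description of the letters and not evidence of a bound site.

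In vehicle cultures both fractions were rich in a few chains, and the order differed between them. Per length, in RPKM, which scales reads by gene length and depth, the most abundant epithelial transcripts were Itga3 at 155 ± 16.3, Itgb1, the β chain shared by most of the receptors, at 98.3 ± 7.97, Itga2, the collagen receptor α2, at 73.2 ± 15.5, Lama5 at 60.7 ± 9.20 and Lamc1 at 37.9 ± 3.07 (mean ± SD, n = 4). In the fibroblast fraction they were Itgb1 at 102 ± 14.99 RPKM, Itga5, the fibronectin receptor α5, at 58.6 ± 22.2, Lamb1 at 44.6 ± 1.62, Lama5 at 44.4 ± 14.3 and Lamb2 at 43.97 ± 6.004 (n = 3). Itga3 stood clear of Itgb1 in the epithelial libraries and Itgb1 clear of Itga5 in the fibroblast libraries. Most neighbours in these orders did not differ beyond their spread, since in each fraction 27 of the 35 neighbouring pairs overlapped over the libraries. Itgb6 was 12th in the epithelial order at 8.23 ± 1.51 RPKM and 22nd in the fibroblast order at 1.75 ± 0.544 RPKM. Itgav was at 12.4 ± 1.55 RPKM in epithelial and 17.5 ± 2.50 RPKM in fibroblast vehicle libraries.

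Of the 32 genes tested between the fractions in vehicle cultures, 12 were higher in the epithelial fraction, 14 were higher in the fibroblast fraction and 6 did not pass the test (edgeR, adjusted p under 0.05), where 56% of all genes tested passed (27.8% higher and 28.2% lower). The epithelial side held Itgb4 and Itga6, the chains of the hemidesmosomal receptor, and the laminin chains Lama3 and Lamb3. Log2 differences, epithelial minus fibroblast, were 2.93 for Itgb4, 2.05 for Lama3 and 1.86 for Lamb3. Among other receptor chains they were 2.79 for Itga3, 2.75 for Itga2 and 2.31 for Itgb6. The fibroblast side held Itga8 (-4.70), Lama2 (-4.28), the leukocyte β chain Itgb2 (-4.03), Itga5 (-3.67), Itgb3 (-3.43), Lamb1 (-2.66), Lama4 (-2.65), Itgb5 (-2.02), Lamb2 (-1.44) and Itgav (-0.48). Itgb1, Lama5 and Lamc1 did not pass, with differences of -0.06, 0.47 and 0.26. After subtraction, 23 of the genes still passed, where 48% of all genes did.

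Several of the 36 genes could not be followed. Itga4 and Itgad, which encode α chains of leukocyte receptors, were below the mean raw count of 1 in both fractions. Itgam and Lamc3 were below it in epithelial libraries only, and Lama1 in fibroblast libraries only. This left 32 genes in the epithelial tests and 33 in the fibroblast tests. A gene can pass this filter through the single group in which it is high, so counts over tested genes are descriptions.

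TGF-β moved most of the family in the epithelial fraction. Of the 32 genes tested, 17 rose and 7 fell, and 8 did not pass, where 41.1% of all genes tested passed (21% higher and 20.1% lower), with a median log2 fold change of 0.64 for these genes and 0.03 for all genes. All RGD-receptor chains but 1 rose. After subtraction 14 of the rises and 3 of the falls were called again in the same direction, where 27.6% of all genes passed.

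The RGD receptors rose together (plot of RGD-receptor levels). Levels are in CPM, scaled with TMM factors, and in the order of the mouse numbers. Itgb6 was at 49.3, 53.2, 73.2 and 65.6 in the epithelial vehicle libraries of mice 1 to 4 and at 186, 208 and 231 in the TGF-β libraries of mice 2 to 4. Every TGF-β library lay far above the highest vehicle library, and the log2 fold change was 1.75 ± 0.12 (adjusted p = 5.02e-10), where ± is the standard error. Itgav, its partner chain, was at 152, 131, 152 and 178 in vehicle and 350.2, 414 and 386 in TGF-β libraries. The groups did not overlap, and the change was 1.31 ± 0.11 (adjusted p = 6.18e-09). Subtraction left 2.13 (adjusted p = 6.87e-08) for Itgb6 and 1.41 (adjusted p = 3.05e-06) for Itgav, so both were at least as large without the estimated fibroblast RNA.

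Itga5, the α chain of the fibronectin receptor, went from 25.9, 22.9, 22.6 and 26.3 to 174, 178 and 209, a change of 3.01 ± 0.18 (adjusted p = 5.9e-11) that was 2.92 (adjusted p = 0.000995) after subtraction. The Itga5 level was 7.83% of that in the paired fibroblast libraries in vehicle and 30.9% with TGF-β. Subtraction left 3.74 to 12.2 CPM of Itga5 in vehicle and 41.3 to 49.5 CPM in TGF-β libraries. The subtracted fold is therefore a ratio to a low remainder. Itgb5, the β chain of the vitronectin receptor αvβ5, went from 50.5, 50.7, 51.03 and 41.4 to 211, 190.2 and 221. Its vehicle libraries lay within a narrow band, with mouse 4 lowest, and all TGF-β libraries were above them. The change of Itgb5 was 2.16 ± 0.12 (adjusted p = 1.76e-11), and 0.80 (adjusted p = 0.0173) after subtraction, and its TGF-β level was 34.1% of that in the paired fibroblast libraries. Itgb3, the β chain of αvβ3, went from 2.33, 1.22, 1.85 and 0.849 to 54.1, 55.3 and 77.4, a change of 5.35 ± 0.25 (adjusted p = 1.96e-12). This was the largest fold change of the 32 genes tested, from a low starting level. The Itgb3 transcript in these libraries amounted to 31.3% of its fibroblast level, beside a fibroblast marker share of 23.5% to 27.9%, and the subtracted change was 4.55 (adjusted p = 0.00291).

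The remaining RGD chains were scarcer or moved less. Itgb8, the other chain with which αv binds latent TGF-β, was at 0.243 to 1.13 CPM in vehicle and 1.81 to 4.20 CPM in TGF-β libraries, a change of 2.16 ± 0.45 (adjusted p = 0.00053). Itga8 was at 1.03 to 1.78 CPM in vehicle and 5.76 to 8.29 CPM in TGF-β libraries, a change of 2.46 ± 0.34 (adjusted p = 5.06e-06), and its TGF-β level was 24.6% of the fibroblast level, inside the range of the fibroblast marker share. It was still called after subtraction, which left 0 CPM in its 4 vehicle libraries and 0 to 2.31 CPM in the TGF-β libraries. Itgb1 was at 549.7 to 657 CPM in vehicle and 856 to 981 CPM in TGF-β libraries, a change of 0.69 ± 0.09 (adjusted p = 2.05e-06) that was 0.77 (adjusted p = 2.51e-05) after subtraction. Itga2b, the platelet αIIb chain, was the RGD chain that did not pass, at 0.69 (adjusted p = 0.102).

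**Figure D1:**
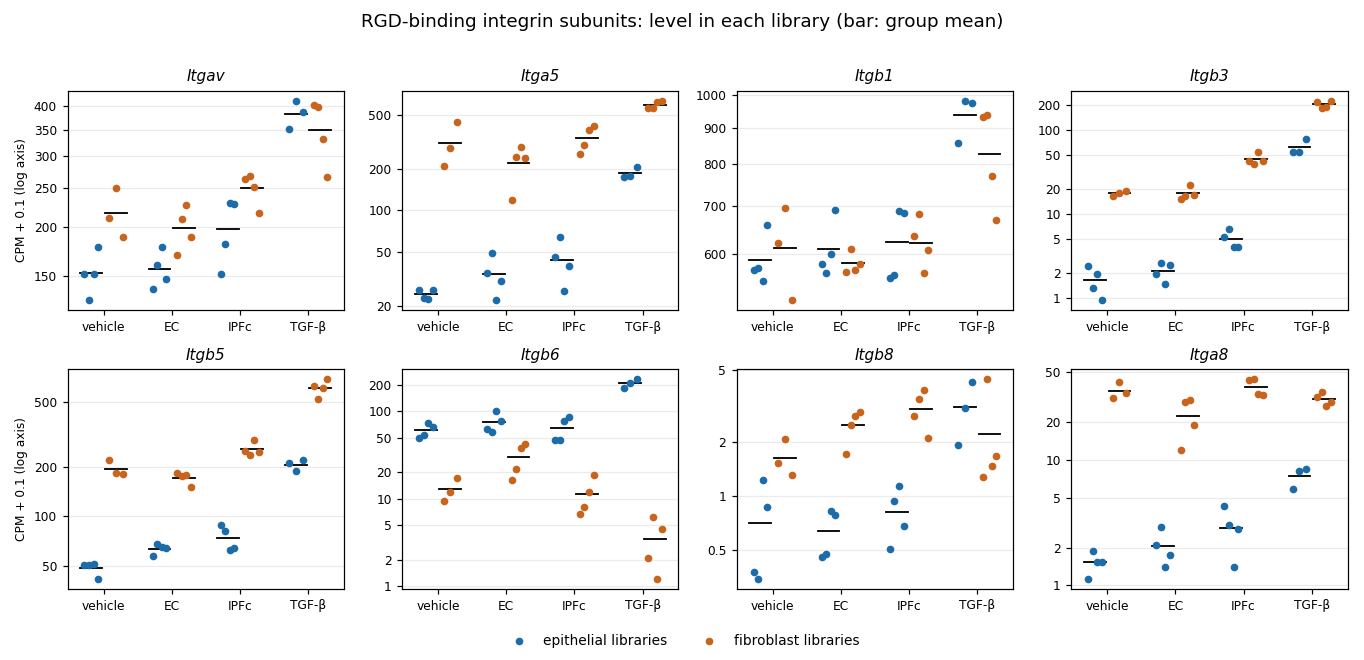
Level of 8 integrin chain genes in each library, in CPM plus 0.1 on a log axis, for epithelial (blue) and fibroblast (orange) libraries under the 4 treatments, with a bar at each group mean. Epithelial Itgb6 lay between 49.3 and 73.2 CPM in vehicle and 186 and 231 CPM in TGF-β cultures, while fibroblast Itgb6 fell to 1.12 to 6.08 CPM.

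The laminin chains did not move as a unit in the epithelial fraction. Lama3, the α chain of the epithelial anchoring laminin, was at 8.40 to 28.8 CPM in vehicle and 89.3 to 116 CPM in TGF-β libraries, a change of 2.55 ± 0.25 (adjusted p = 6.59e-08), and 2.99 (adjusted p = 1.3e-05) after subtraction. Lamb3, its β chain, was at 146 to 189 CPM and 225 to 292 CPM in the same groups, a change of 0.72 ± 0.09 (adjusted p = 1.85e-06). After subtraction Lamb3 was at 1.09 (adjusted p = 1.09e-06). Both genes rose, and the fold change of Lama3 was the larger.

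Lamb1, the β chain of the widespread basement membrane laminins, went from 81.4, 59.5, 87.96 and 71.5 CPM to 338, 395 and 413 CPM. All TGF-β libraries were above all vehicle libraries, and the change of 2.36 ± 0.11 (adjusted p = 1.96e-12) was 2.43 (adjusted p = 9.26e-08) after subtraction. Lamc1, the γ chain that shares those trimers, went the other way, from 434, 379.8, 461 and 442 to 241, 249 and 249 CPM, a change of -0.75 ± 0.12 (adjusted p = 2.92e-05) that was -0.75 (adjusted p = 0.00177) after subtraction. Lama2, the α chain of muscle-type basement membrane, was at 1.74 to 6.58 CPM in vehicle and 6.13 to 9.72 CPM in TGF-β libraries with overlap, a change of 1.75 ± 0.34 (adjusted p = 0.000323), and stood at 32.1% of its fibroblast level. Subtraction left Lama2 at 0 to 1.82 CPM in vehicle and 0.309 to 4.01 CPM in TGF-β libraries. Lama5, Lamb2 and Lama4 did not pass, with changes of -0.07, 0.21 and -0.01.

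The laminin receptors fell with the counts as deposited. Itga3 went from 912, 881, 1021 and 791 to 569, 619 and 546 CPM without overlap, a change of -0.58 ± 0.10 (adjusted p = 0.000117). Itga6 went from 284, 297, 311 and 368 to 221, 229 and 219 CPM without overlap, a change of -0.49 ± 0.11 (adjusted p = 0.0014). Itgb4, which pairs with α6 alone, was at 131 to 256 CPM in vehicle and 115 to 136 CPM in TGF-β libraries with overlap, a change of -0.60 ± 0.14 (adjusted p = 0.00216). None of these 3 falls was called after subtraction, where the changes were -0.22 (adjusted p = 0.2), -0.28 (adjusted p = 0.0911) and -0.22 (adjusted p = 0.401). Marker lists of epithelial cell types were lower in the same libraries, with every listed gene at a mean of 1 CPM or more in both groups. The 5 alveolar type 2 markers summed to 5776 to 7441 CPM in vehicle and 1266 to 3114 CPM in TGF-β libraries, the 5 alveolar type 1 markers to 1495 to 1855 CPM and 433 to 606 CPM, and the 4 basal cell markers to 26.4 to 1074 CPM and 6.02 to 80.1 CPM. Their part in these falls was not tested. Itga7, a receptor known mainly from muscle, fell from 82.1, 85.6, 74.5 and 71.7 to 32.6, 26.9 and 27.7 CPM, a change of -1.37 ± 0.11 (adjusted p = 5.09e-09), and was still called at -1.77 (adjusted p = 3.56e-07). All TGF-β libraries of Itga7 were below all vehicle libraries.

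**Figure D2:**
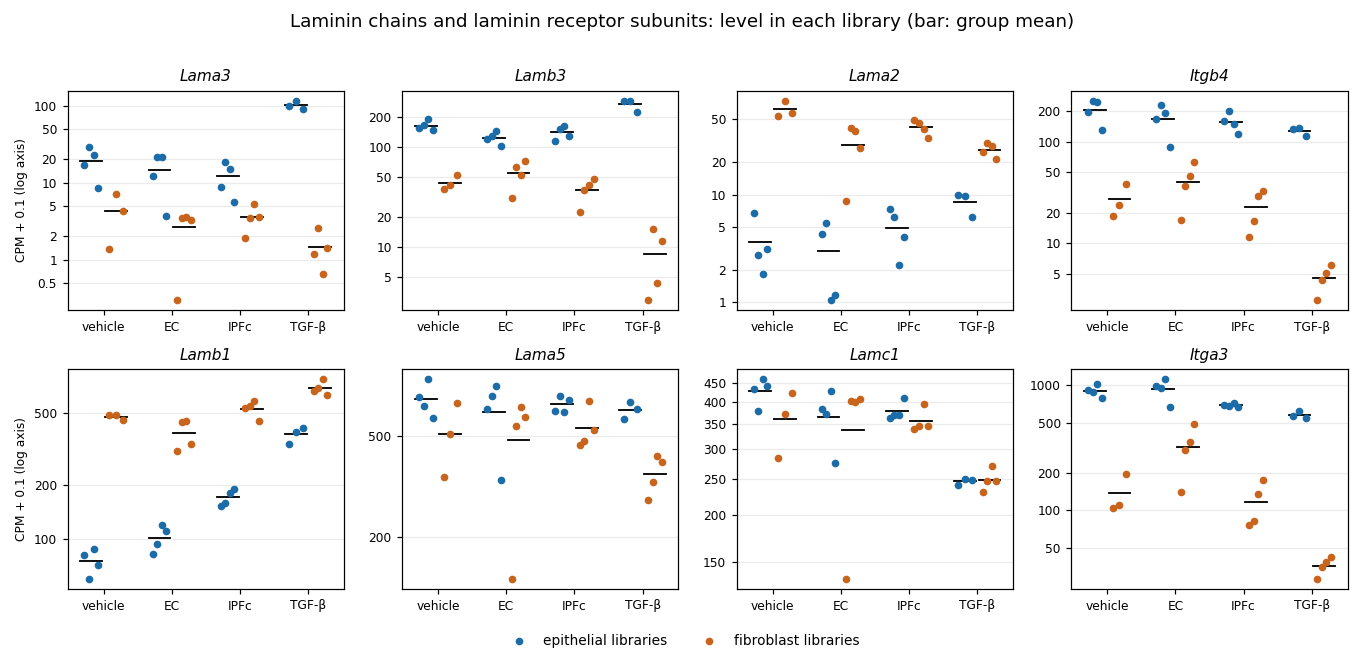
Level of 6 laminin chain genes and of the receptor chains Itgb4 and Itga3 in each library, in CPM plus 0.1 on a log axis, for epithelial (blue) and fibroblast (orange) libraries, with a bar at each group mean. Epithelial Lama3 rose with TGF-β while Lamc1 and Itga3 fell, and fibroblast Lamb3, Itgb4 and Itga3 were lowest in TGF-β cultures.

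Among the collagen receptors, Itga2 rose by 0.58 ± 0.13 (adjusted p = 0.00125) and Itga1 fell, with a change of -0.72 ± 0.17 (adjusted p = 0.00218). Itga11 rose at 1.79 ± 0.43 (adjusted p = 0.00206) and was at 0.84 (adjusted p = 0.523) after subtraction, and Itga10 did not pass at -0.14. Itga9, which binds tenascin, rose at 0.60 ± 0.13 (adjusted p = 0.000964) and was still called after subtraction. Among the leukocyte chains, Itgb7 fell from 4.46, 4.38, 5.13 and 4.50 to 0.635, 0.919 and 0.909 CPM, a change of -2.44 ± 0.30 (adjusted p = 1.23e-06), and -3.53 (adjusted p = 0.000127) after subtraction. Every Itgb7 library of the TGF-β group was below every vehicle library. Itgb2 was at 0.849 to 2.88 CPM in vehicle and 4.89 to 5.97 CPM in TGF-β libraries, a change of 1.79 ± 0.31 (adjusted p = 7.46e-05). It stood at 24.3% of its fibroblast level, and its subtracted change was -0.84 (adjusted p = 0.635). Itgax was at 0 to 0.0513 CPM in vehicle and 0.0766 to 1.36 CPM in TGF-β libraries and was too low to test after subtraction. Beside the leukocyte chains, 3 of 12 immune markers had a mean of at least 1 CPM in epithelial vehicle and 4 of 12 in epithelial TGF-β libraries, summing to 302 to 338 CPM and 132 to 200.5 CPM, and their part in these changes was not tested.

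In the fibroblast fraction TGF-β raised 7 genes and lowered 10 of the 33 tested, and 16 did not pass, where 19.2% of all genes tested passed (6.39% higher and 12.8% lower) and the median log2 fold change was -0.41 for these genes and -0.02 for all. The rises were again RGD chains with the collagen receptor Itga11 and Lamb1. The falls were led by genes of the epithelial laminin and its receptors, in libraries whose epithelial share fell from 13.7% to 25.6% in vehicle to 0.866% to 3.52% with TGF-β. After subtraction 2 rises and 3 falls were called, where 5.12% of all genes passed. Without the EC library of mouse 1 in the fit, 7 rose and 15 fell. The share of all genes in that fit is not given here, so a general change in calls cannot be told apart.

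Itgb3 was at 16.2, 17.8 and 18.6 CPM in the vehicle libraries of mice 1, 3 and 4 and at 214, 185, 189 and 224 CPM in the TGF-β libraries of mice 1 to 4. The groups were far apart, with a change of 3.65 ± 0.15 (adjusted p = 7.66e-11) that was 3.36 (adjusted p = 4.14e-06) after subtraction. Itgb5 went from 223, 184 and 182 to 629, 522, 612 and 689.6 CPM, a change of 1.75 ± 0.13 (adjusted p = 3.83e-08), and 1.49 (adjusted p = 0.000113) after subtraction. Again no library of one group reached the other group. Itga11, a collagen receptor of fibroblasts, went from 3.68, 4.29 and 4.03 to 14.8, 13.5, 12.8 and 12.2 CPM, a change of 1.77 ± 0.29 (adjusted p = 0.000215) with 1.58 (adjusted p = 0.0857) after subtraction. Itga5 went from 209.7, 284 and 441 to 557, 558, 621 and 635 CPM, a change of 1.06 ± 0.19 (adjusted p = 0.000444) with 0.79 (adjusted p = 0.116) after subtraction.

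Itgav was at 209, 249 and 188 CPM in vehicle and 402, 398, 332 and 266 CPM in TGF-β libraries of the fibroblast fraction. All 4 TGF-β libraries were above the 3 vehicle libraries, with mouse 4 lowest, and the change was 0.71 ± 0.14 (adjusted p = 0.00108), or 0.59 (adjusted p = 0.107) after subtraction. Itgb1 and Lamb1 rose by 0.45 ± 0.13 (adjusted p = 0.0214) and 0.57 ± 0.12 (adjusted p = 0.00257), with 0.39 (adjusted p = 0.205) and 0.28 (adjusted p = 0.373) after subtraction.

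Itgb6 in the fibroblast fraction was at 9.40, 11.9 and 17.2 CPM in vehicle and 2.03, 6.08, 1.12 and 4.41 CPM in TGF-β libraries. The groups did not overlap and the change was -1.88 ± 0.37 (adjusted p = 0.00132), opposite in sign to the epithelial change. Lamb3 went from 37.5, 41.04 and 51.6 to 2.81, 14.8, 4.22 and 11.3 CPM, a change of -2.64 ± 0.28 (adjusted p = 1.81e-06). Itgb4 and Itga3 moved the same way. Itgb4 went from 18.6, 23.8 and 38.7 to 2.66, 4.21, 5.03 and 5.98 CPM, a change of -2.50 ± 0.19 (adjusted p = 4.4e-08), and Itga3 from 104, 109 and 195 to 28.1, 34.8, 38.4 and 41.8 CPM, a change of -1.78 ± 0.20 (adjusted p = 3.24e-06). After subtraction, none of Itgb6, Lamb3, Itgb4 and Itga3 was called. The level left was 16.8 to 19.2 CPM in vehicle and 0 to 7.27 CPM in TGF-β libraries for Lamb3, a change of -3.71 (adjusted p = 0.104). For Itgb6 it was 0.595 to 2.28 CPM and 0 to 1.06 CPM, a change of -4.01 (adjusted p = 0.405). The groups did not overlap in Lamb3 and did in Itgb6. For Itgb4 the level left was 0 to 7.14 CPM in vehicle and 0.635 to 3.90 CPM in TGF-β libraries, and for Itga3 it was 0 in all 3 vehicle libraries and 20.5 to 33.5 CPM with TGF-β, so no fold is given for either.

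Itga9 went from 21.7, 25.03 and 26.6 to 3.75, 9.29, 5.21 and 7.50 CPM in the fibroblast fraction, a change of -2.09 ± 0.20 (adjusted p = 4.4e-07), with -2.21 (adjusted p = 0.186) after subtraction. For 3 genes the fall was called with and without subtraction. These were Lama4, the laminin α chain of mesenchyme and vessels, at -1.51 ± 0.17 (adjusted p = 4.93e-06) and -1.77 (adjusted p = 0.00113) after subtraction, Itga2b at -0.69 ± 0.16 (adjusted p = 0.00562) and -0.96 (adjusted p = 0.00675), and Itgb2 at -0.41 ± 0.14 (adjusted p = 0.0453) and -0.71 (adjusted p = 0.0222). Lama2 and Lama3 fell at -1.28 ± 0.27 (adjusted p = 0.0023) and -1.57 ± 0.48 (adjusted p = 0.0281) and were not called after subtraction, which left Lama2 at -1.56 (adjusted p = 0.0546) and Lama3 at 0 CPM in all 4 TGF-β libraries, so that no fold is given for it.

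The responses of the fractions to TGF-β were compared directly. The epithelial minus the fibroblast log2 fold change passed for 20 of the 32 genes tested, above 0 for 18 and below 0 for 2, where 27.5% of all genes passed (20.2% higher and 7.36% lower) and the median over all genes was 0.21. The largest was Lama3 at 4.23 ± 0.54 (adjusted p = 1e-06), followed by Itgb6 at 3.63 ± 0.38 (adjusted p = 5.75e-08) and Lamb3 at 3.36 ± 0.30 (adjusted p = 3.85e-09). Itgav differed by 0.62 ± 0.18 (adjusted p = 0.00966), although it rose in both fractions. Itga7 and Itgb7 were the pair below 0, at -1.51 ± 0.17 (adjusted p = 1.25e-07) and -1.89 ± 0.39 (adjusted p = 0.000567). After subtraction 14 genes passed, where 14% of all genes did, and 13 of them kept their direction, Itgb6 (adjusted p = 0.0279) and Itgav (adjusted p = 0.0461) among them. For Itgb6 subtraction had left 0.595 to 2.28 CPM in fibroblast vehicle and 0 to 1.06 CPM in fibroblast TGF-β libraries. At such levels this test cannot show a fibroblast response of Itgb6. Itga3 turned to below 0 (adjusted p = 0.0235), where subtraction had left 0 CPM of it in the fibroblast vehicle libraries. Counting each fraction on its own, of the 31 genes tested in both, 7 rose in both (Itga5, Itga11, Itgav, Itgb1, Itgb3, Itgb5 and Lamb1), 2 fell in both (Itga3 and Itgb4), and 6 rose in epithelial and fell in fibroblast libraries (Itga9, Itgb2, Itgb6, Lama2, Lama3 and Lamb3). Over all 16818 genes tested in both fractions these shares were 4.59%, 6.02% and 1.86%. This tally used the counts as deposited. After subtraction the fibroblast falls of Itga9, Itgb6, Lama2, Lama3 and Lamb3 were not called, and neither was the epithelial rise of Itgb2. The falls of Itga3 and Itgb4 were called in neither fraction. Among the genes that rose in both, only Itgb3 and Itgb5 kept the call of their fibroblast rise.

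The level of single genes can be set against the marker share (plot of partner ratios). In fibroblast libraries Itgb6 amounted to 20.4%, 39.8%, 17.5% and 1.64% of the paired epithelial level in vehicle, EC, IPFc and TGF-β cultures. The shares of the epithelial markers spanned 13.7% to 25.6%, 34.2% to 49.3%, 10.2% to 27.0% and 0.866% to 3.52% in the same groups, and Itgb6 lay inside them in all 4. Itga6 was different, at 53.4%, 58.4%, 57.6% and 53.04%, above the share in every group. Because the share is a median over markers, a level above it does not show which cells made the transcript. In epithelial libraries Itgb5 at 24.7%, 36.7%, 28.6% and 34.1% and Lamb1 at 15.7%, 26.01%, 32.05% and 54.5% of the paired fibroblast level were above the fibroblast share in every group.

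**Figure D3:**
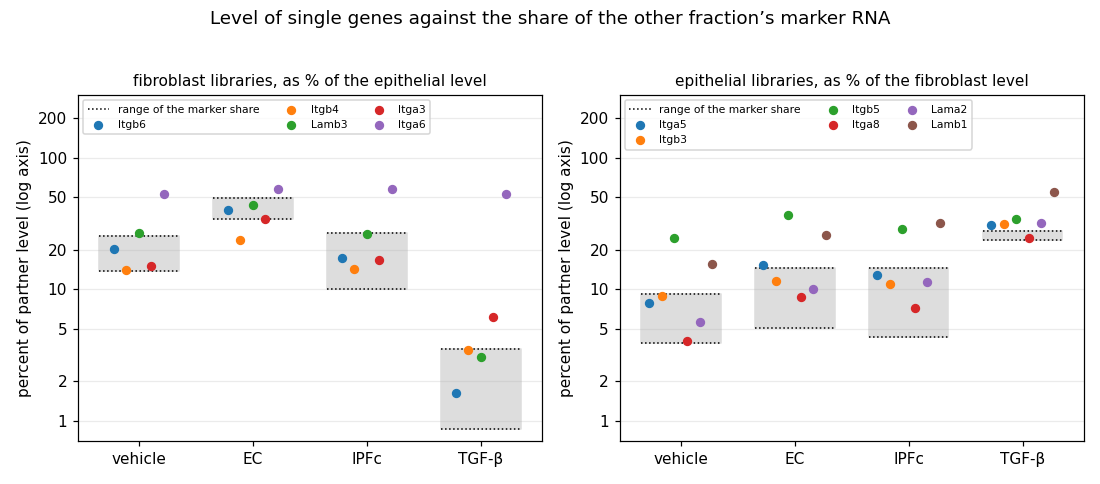
Level of single genes in fibroblast libraries as a percent of the paired epithelial level (left) and in epithelial libraries as a percent of the paired fibroblast level (right), on log axes, with a grey band over the range of the marker share of the other fraction. Itgb6 followed the band in all 4 treatments, and Itga6, Itgb5 and Lamb1 lay above it.

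EC changed few of these genes in the epithelial fraction, where 5 rose and 1 fell of the 32 tested and 4.41% of all genes tested passed (1.96% higher and 2.44% lower). Itgb6 was at 62.5, 57.7, 101 and 76.2 CPM with EC and Itgav at 139, 160.0, 177 and 148 CPM. Both overlapped the vehicle libraries, with changes of 0.29 ± 0.11 (adjusted p = 0.19) and 0.03 ± 0.10 (adjusted p = 0.944). Lamb3 was at 120.1, 129, 144 and 102 CPM with EC beside 154, 165, 189 and 146 CPM in vehicle, a change of -0.40 ± 0.08 (adjusted p = 0.00483). Every EC library was below every vehicle library in Lamb3, and its fall was called after subtraction, at -0.38 (adjusted p = 0.0267).

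The 5 epithelial rises with EC were small, in libraries with a fibroblast share of 5.10% to 14.5% beside 3.93% to 9.27% in vehicle. Itga1 was at 12.6, 13.2, 15.6 and 13.3 CPM with EC and 8.57, 9.005, 8.98 and 9.76 CPM in vehicle, and Itgb5 at 57.2, 67.5, 64.6 and 64.1 CPM with EC. Neither gene overlapped its vehicle libraries, with changes of 0.59 ± 0.15 (adjusted p = 0.0205) and 0.39 ± 0.11 (adjusted p = 0.0436). Lamb1 was at 82.04, 92.7, 119 and 109.5 CPM, Itga2 at 634, 561, 989 and 632 CPM beside 445, 421, 564 and 659 CPM in vehicle, and Itgb2 at 4.33, 5.03, 2.68 and 4.20 CPM beside 2.88, 2.03, 1.54 and 0.849 CPM. These 3 overlapped, with changes of 0.42 ± 0.10 (adjusted p = 0.0155), 0.44 ± 0.12 (adjusted p = 0.0405) and 1.16 ± 0.28 (adjusted p = 0.0184). After subtraction none of the 5 rises was called, with changes of 0.58 (adjusted p = 0.072) for Itga1, 0.47 (adjusted p = 0.0968) for Itga2, 0.36 (adjusted p = 0.621) for Itgb5 and 0.37 (adjusted p = 0.251) for Lamb1, close to those above. Itgb2 was left at a mean of 0.234 CPM in vehicle and 1.57 CPM with EC (adjusted p = 0.124). Without the mouse block in the fit, 1 of the 32 genes passed with EC, a count given without the share of all genes in that fit.

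In the fibroblast fraction EC was followed by 5 rises and 3 falls of the 33 genes tested, where 7.11% of all genes tested passed (4.28% higher and 2.84% lower). Itga2 was at 53.3, 90.8 and 108 CPM in vehicle and 103, 214, 302 and 392 CPM with EC, a change of 1.59 ± 0.26 (adjusted p = 0.00177). Itga3 was at 139, 305, 349 and 488 CPM with EC, a change of 1.22 ± 0.20 (adjusted p = 0.00186). The EC libraries of mice 2 to 4 were above the vehicle libraries in Itga3, and that of mouse 1 was not. Itga1 went from 1.88, 4.44 and 3.40 to 6.20, 10.4, 12.3 and 11.8 CPM without overlap, a change of 1.64 ± 0.32 (adjusted p = 0.00494). Itgb6 was at 16.4, 21.7, 37.7 and 42.4 CPM and overlapped vehicle, with a change of 1.17 ± 0.34 (adjusted p = 0.0454). Itga7 was at 43.8, 70.1, 60.4 and 64.2 CPM beside 37.7, 38.7 and 49.2 CPM, a change of 0.48 ± 0.13 (adjusted p = 0.0382). Each of these 5 genes was higher in the epithelial than in the fibroblast fraction of vehicle cultures, and the epithelial share of the fibroblast libraries was 34.2% to 49.3% with EC and 13.7% to 25.6% in vehicle.

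The falls with EC were in genes that were higher in the fibroblast than in the epithelial fraction. Lama2 was at 53.5, 74.3 and 57.2 CPM in vehicle and 8.60, 40.9, 38.7 and 26.9 CPM with EC, a change of -1.23 ± 0.28 (adjusted p = 0.0124). Lamb2 was at 245, 248 and 309.9 and 112, 202, 229 and 187 CPM, a change of -0.58 ± 0.16 (adjusted p = 0.0385). Itga8 was at 31.1, 41.5 and 33.6 and 11.8, 28.5, 29.7 and 18.8 CPM, a change of -0.76 ± 0.21 (adjusted p = 0.0394). The groups did not overlap in these 3 genes. Itgav was at 169, 209, 226 and 188 CPM with EC and did not pass, at -0.16 ± 0.14 (adjusted p = 0.52). After subtraction none of the 8 fibroblast calls was made by edgeR, 2 of the 33 genes had an unadjusted p under 0.05, and 0.206% of all genes passed. The changes left were 2.11 (adjusted p = 0.412) for Itga1, 3.07 (adjusted p = 0.912) for Itga2, 1.39 (adjusted p = 0.919) for Itgb6, 0.12 (adjusted p = 0.968) for Itga7, -0.88 (adjusted p = 0.631) for Lama2, -0.34 (adjusted p = 0.799) for Lamb2 and -0.40 (adjusted p = 0.791) for Itga8. Those of Itga1, Itga2 and Itgb6 were thus no smaller than with the counts as deposited. The loss of a call does not show that a change was absent. These folds are ratios to low remainders, so their size does not show that a change was present either. Itga1 was left at 0.702 to 3.74 CPM in vehicle and 1.90 to 10.6 CPM in EC libraries. In the same groups Itga2 was left at 0 to 15.6 and 0 to 161 CPM, and Itgb6 at 0.595 to 2.28 and 0 to 9.71 CPM. Itga3 was left at 0 in all 3 vehicle libraries and at 0 to 313 CPM in the EC libraries. Without the mouse block 2 of the 33 genes passed, without the cultures of mouse 2 there were 5, without those of mouse 3 only 1, without those of mouse 4 there were 2, and without the EC library of mouse 1 there were 9. The share of all genes in these fits is not given here, so a general change in calls cannot be told apart.

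IPFc, which contained TGF-β among other cytokines, was followed by 5 rises and 2 falls in the epithelial fraction, where 4.1% of all genes tested passed (2.57% higher and 1.53% lower). Itgb6 was at 47.3, 47.3, 76.8 and 85.1 CPM and overlapped vehicle, with a change of 0.05 ± 0.11 (adjusted p = 0.94). Itgav was at 152, 181, 229 and 227 CPM, higher than vehicle in mice 2 to 4 and level with it in mouse 1, and did not pass at 0.34 ± 0.10 (adjusted p = 0.0621), whereas DESeq2 put it at 0.33 with an adjusted p of 0.037. Lamb1 was at 152, 159, 180.3 and 190.3 CPM, above every vehicle library, a change of 1.17 ± 0.10 (adjusted p = 1.91e-07) that was 1.34 (adjusted p = 6.77e-05) after subtraction. Itga7 went down to 40.6, 48.4, 37.6 and 28.7 CPM from the vehicle values above, a change of -1.04 ± 0.10 (adjusted p = 7.55e-07), with -1.07 (adjusted p = 9.09e-05) after subtraction. Lamb1 and Itga7 were the only calls left by the subtraction.

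The other calls with IPFc in the epithelial fraction were lost on subtraction. Itgb3 was at 5.18, 6.51, 3.90 and 3.93 CPM and Itgb5 at 88.7, 80.97, 62.1 and 63.6 CPM, both above vehicle in every library, with changes of 1.58 ± 0.26 (adjusted p = 0.00073) and 0.59 ± 0.11 (adjusted p = 0.00247), and 0.04 and 0.48 after subtraction. Itga5 was at 45.97, 63.6, 25.5 and 39.5 CPM with a change of 0.77 ± 0.17 (adjusted p = 0.00865) and 0.44 after subtraction. Itgb2 was at 5.99, 5.97, 2.33 and 3.36 CPM with a change of 1.23 ± 0.28 (adjusted p = 0.0126), and subtraction left a mean of 0.234 CPM in vehicle and 0.972 CPM with IPFc, a larger change of 2.18 (adjusted p = 0.484). Itga3 was at 693, 681, 719 and 663 CPM, below every vehicle library, with a change of -0.39 ± 0.09 (adjusted p = 0.0161) and -0.32 after subtraction. The share of fibroblast RNA in these libraries was 4.36% to 14.4%, beside 3.93% to 9.27% in vehicle.

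In the fibroblast fraction Itgb3 was the single call of the 33 genes with IPFc, where 0.449% of all genes tested passed (0.305% higher and 0.144% lower). It was at 43.1, 38.9, 53.97 and 42.5 CPM, above the vehicle libraries in every culture, a change of 1.39 ± 0.14 (adjusted p = 0.000134) that was 1.36 (adjusted p = 0.0412) after subtraction. Itgb6 was at 6.68, 7.88, 11.7 and 18.5 CPM and Itgav at 263, 268, 251 and 216 CPM, with changes of -0.25 ± 0.33 (adjusted p = 1) and 0.17 ± 0.14 (adjusted p = 1). The Itgb6 libraries overlapped vehicle and the Itgav libraries did so in part. A further 3 of the 33 genes had an unadjusted p under 0.05, and 3 genes were called without the EC library of mouse 1 in the fit. For that fit the share of all genes is not given here.

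The cocktail was also set against TGF-β alone. A TGF-β concentration is given here for TGF-β alone, at 2 ng/ml, and not for IPFc. A different dose of TGF-β and the other cytokines of IPFc therefore cannot be told apart in this comparison. In the epithelial fraction 23 of 32 genes differed, 5 higher and 18 lower with IPFc, where 37.2% of all genes tested passed (18.6% higher and 18.7% lower). The log2 difference, IPFc minus TGF-β, was -1.70 ± 0.12 (adjusted p = 1.02e-09) for Itgb6, -0.97 ± 0.11 (adjusted p = 4.66e-07) for Itgav, -3.77 ± 0.22 (adjusted p = 5.85e-11) for Itgb3 and -3.25 ± 0.26 (adjusted p = 4.55e-09) for Lama3. After subtraction 16 of them passed in the same direction, where 26.8% of all genes passed. In the fibroblast fraction 17 of 33 differed, 10 higher and 7 lower with IPFc, where 17.4% of all genes passed (12.1% higher and 5.33% lower), and Itgb3 was at -2.26 ± 0.13 (adjusted p = 1.63e-09). Of those 17, 5 were called after subtraction, where 4.1% of all genes passed, Itgb3, Itgb5 and Itga11 lower and Itgb2 and Lama4 higher with IPFc.

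Between the fractions, the response to EC differed in 5 of 32 genes (2 above and 3 below 0, epithelial minus fibroblast), where 4.59% of all genes passed (1.26% higher and 3.33% lower). The pair above 0 was Itgb2 at 1.33 ± 0.30 (adjusted p = 0.00874) and Lamb1 at 0.77 ± 0.16 (adjusted p = 0.00478), and Itga3, Itga2 and Itgb4 were below 0 at -1.19, -1.17 and -0.89. After subtraction none of them was called by edgeR, and 6 genes had an unadjusted p under 0.05. Without the mouse block 0 genes passed for EC and 9 had an unadjusted p under 0.05, and the same counts were found without the cultures of mouse 4, whereas DESeq2 called 8. Without the cultures of mouse 2 there were 3 calls for EC, and without those of mouse 3 there were 2. The response to IPFc differed in Lamb1 at 1.07 ± 0.16 (adjusted p = 0.0011) and Itga7 at -0.85 ± 0.16 (adjusted p = 0.0146), where 0.229% of all genes passed (0.185% higher and 0.0436% lower), and subtraction left the call of Lamb1. Without the mouse block 0 genes passed for IPFc and 5 had an unadjusted p under 0.05, and the same comparison gave 0 calls without the cultures of mouse 2 or of mouse 4, with 4 genes under 0.05 unadjusted in both. The counts of these alternative fits are given without the share of all genes.

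Genes that work with the integrins were read from 3 lists. Of 22 ligands and latent TGF-β genes, 21 were tested, and TGF-β raised 18 and lowered 1 in the epithelial fraction, with a median log2 fold change of 1.69 beside 0.03 over all genes, of which 41.1% passed. Fn1, fibronectin, rose by 4.17 ± 0.19 (adjusted p = 1.96e-12), Tnc, tenascin C, by 3.04 ± 0.26 (adjusted p = 6.93e-09) and Ltbp1, which tethers latent TGF-β, by 2.45 ± 0.19 (adjusted p = 1.53e-09). Tgfb1, whose product αvβ6 activates, rose by 1.69 ± 0.19 (adjusted p = 3.14e-07). After subtraction Fn1, Tnc and Ltbp1 were called (adjusted p = 0.00916, 0.00219 and 1.24e-05), and Tgfb1 was at -0.19 (adjusted p = 0.707). The subtracted change of Fn1 was 8.01 ± 2.04. Epithelial Fn1 in vehicle was at 6.4% of its fibroblast level, inside the subtracted share of 3.93% to 9.27%. The size of the subtracted Fn1 change therefore depends on how much RNA was removed. The list then held 11 rises and 3 falls, where 27.6% of all genes passed, and 11 of these calls had the direction of the deposited counts. Spp1, osteopontin, turned from a rise of 3.65 to a called change of -11.7 (adjusted p = 0.0107). Its epithelial TGF-β level was 20.1% of the fibroblast level, below the subtracted share of 23.5% to 27.9%. The change of Spp1 after subtraction therefore cannot be told apart from the removal of too much RNA. In the fibroblast fraction 9 rose and 7 fell with TGF-β, where 19.2% of all genes passed (6.39% higher and 12.8% lower), among the rises Tgfb1 at 1.44 ± 0.14 (adjusted p = 5.77e-07) and Tgfb3 at 0.76 ± 0.13 (adjusted p = 0.000332), and subtraction left 11 of the 16 calls, where 5.12% of all genes passed.

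Of 28 adaptors that link integrins to the cytoskeleton, all tested, TGF-β raised 15 and lowered 2 in the epithelial fraction (median 0.34) and raised 9 and lowered 0 in the fibroblast fraction (median 0.31), beside 41.1% and 19.2% of all genes called. Subtraction left 9 and 2 of these calls, beside 27.6% and 5.12% of all genes. Of 25 basement membrane partners, 24 were tested, and 15 rose and 3 fell in the epithelial fraction (median 0.43), whereas 5 rose and 8 fell in the fibroblast fraction (median -0.04), beside the same 41.1% and 19.2% of all genes. Subtraction left 11 and 4, beside 27.6% and 5.12%. It turned Col18a1 and Col4a2, collagen chains of basement membranes, from epithelial rises of 2.18 and 0.32 to called changes of -11.9 and -0.51 (adjusted p = 6.08e-05 and 0.0265). Epithelial Col18a1 with TGF-β was at 23.7% of its fibroblast level, beside a subtracted share of 23.5% to 27.9%. Its change after subtraction therefore cannot be told apart from the removal of too much RNA. Col17a1, the collagen of the hemidesmosome, was among the epithelial falls at -1.81 ± 0.27 (adjusted p = 1.26e-05), and Col4a1, the type IV collagen α1 chain, rose in both fractions, by 0.54 ± 0.11 (adjusted p = 0.000534) and 1.02 ± 0.16 (adjusted p = 0.000155). Neither Col4a1 call was left after subtraction, at -0.0076 (adjusted p = 0.977) in the epithelial and 0.91 (adjusted p = 0.153) in the fibroblast fraction. With EC the ligand list held 1 rise and 7 falls among its 21 tested genes in the fibroblast fraction, where 7.11% of all genes passed. The basement membrane list held 5 falls and 0 rises with EC in each fraction, beside 4.41% of epithelial and 7.11% of fibroblast genes. Epithelial EC gave 2 rises and 2 falls in each other list, and fibroblast EC 2 rises and 1 fall among adaptors. Epithelial IPFc gave 1, 3 and 2 rises and 2, 0 and 1 falls in the basement membrane, adaptor and ligand lists. Of all genes 4.1% passed there. Fibroblast IPFc gave 1 rise each among adaptors and ligands and 0 calls in the other list, beside 0.449% of all genes. The list counts with EC and IPFc are for the counts as deposited and were not repeated after subtraction. The epithelial share of fibroblast libraries was 34.2% to 49.3% with EC and 13.7% to 25.6% in vehicle. After subtraction 0.206% of all fibroblast genes passed with EC. The part of the share in the falls of these lists was not tested.

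The pattern of Itgb6 over the 15 epithelial libraries was most like that of Clu, with a Spearman correlation of log2 CPM of 0.96, among 10572 genes with a mean of at least 5 CPM. C130074G19Rik, Cldn4, Rin2 and Ifngr1 followed at 0.94, 0.94, 0.93 and 0.93. Among the integrin and laminin genes the closest were Itga2 at 0.88 and Itgb1 at 0.83, with Itgav at 0.65 and Lamb1 at 0.64. These correlations are descriptions over libraries that share mice, depth and treatments.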

How the data were processed

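The authors deposited 1 table of raw read counts per gene for each library, made from total RNA with adapter trimming in Trimmomatic 0.30 per the labels. The labels name GRCm39 and the study's methods GRCm38 as the reference, and the aligner, counter and strand setting are not given in the sources used here. The counts of 30 libraries were fitted with edgeR 4.0.16 in R 4.3.3 (quasi-likelihood F test, two-sided, TMM scaling, mouse as a block, Benjamini-Hochberg over all genes tested), in each fraction over its 15 libraries, for genes whose raw count averaged 1 or more. Fractions were compared over all 30 libraries. A gene was called at an adjusted p under 0.05. The replicate number is the mouse in the labels, and deviations from group means correlated within a mouse at a mean of 0.26 in epithelial and 0.29 in fibroblast libraries. Libraries of 1 group differed by more than sampling noise. RPKM used exon-union lengths of GENCODE vM39, which matched 93.2% of the gene IDs. The share of the other fraction was the median CPM ratio to the paired library over its markers with at least 50 CPM there, and for a missing partner the group mean stood in. The integrin and laminin genes, the 3 pathway lists and the markers were chosen with earlier results of these data known. Of the genes that the symbol rule selects, 1 is not reported here and is left out of every count of these genes, though it stayed in the fits. Values are given for Itgb6, Itgav and, in each comparison with vehicle, up to 5 called genes in each direction with the smallest adjusted p; other genes were chosen after their values were seen. Alternatives were DESeq2 1.42.0, its size factors, other filters, fits without the block or with only the groups compared, robust estimation, subtraction and leaving out each mouse. The test was checked on simulated data.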

Additional observations from a re-analysis of the deposited data

Results flagged for a closer look

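Within groups of 4 libraries, 12 of 166 gene and group combinations held a library farther from the others than Dixon's test allows, where chance flags about 1 in 20. In the shallow fibroblast EC library of mouse 1, Lamc1 was at 135 CPM beside 400.0 to 408 CPM in the other EC libraries and Lama3 at 0.200 CPM beside 3.19 to 3.46 CPM. In fibroblast IPFc libraries, Itga9 was at 13.4 CPM in mouse 1 beside 24.0 to 24.8 CPM, and mouse 3 had Lamb2 at 257 CPM beside 207 to 211 CPM and Lamc1 at 396 CPM beside 339.9 to 347 CPM. In fibroblast TGF-β libraries, Itgb8 was at 4.34 CPM in mouse 2 beside 1.17 to 1.57 CPM and Lama4 at 10.22 CPM in mouse 4 beside 14.0 to 14.6 CPM. In epithelial vehicle libraries, Itga11 was at 0.487 CPM in mouse 2 beside 1.69 to 1.85 CPM, Itgb5 at 41.4 CPM in mouse 4 beside 50.5 to 51.0 CPM, and Itgb7 at 5.13 CPM in mouse 3 beside 4.38 to 4.50 CPM. In epithelial IPFc libraries, Itga11 was at 1.89 CPM in mouse 2 beside 0.819 to 0.971 CPM and Lamc1 at 412 CPM in mouse 4 beside 363 to 371 CPM.

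The difference between fractions in the response to a treatment passed its own edgeR test for these genes, given as epithelial minus fibroblast log2 fold change. With TGF-β the RGD chains were at 3.63 for Itgb6, 2.71 for Itga8, 1.98 for Itga5, 1.89 for Itgb8, 1.72 for Itgb3, 1.38 for Itga2b and 0.62 for Itgav. The laminin chains were at 4.23 for Lama3, 3.36 for Lamb3, 3.03 for Lama2, 1.82 for Lamb1, 1.52 for Lama4 and 0.65 for Lamb2. The laminin receptor chains were at 1.93 for Itgb4, 1.22 for Itga3 and -1.51 for Itga7. Itga9 was at 2.71, Itgax at 3.46, Itgb2 at 2.19 and Itgb7 at -1.89. With EC the values were 1.33 for Itgb2, 0.77 for Lamb1, -0.89 for Itgb4, -1.17 for Itga2 and -1.19 for Itga3. With IPFc they were 1.07 for Lamb1 and -0.85 for Itga7. The epithelial share of fibroblast libraries and the fibroblast share of epithelial libraries moved with these treatments, and 13 of the 20 TGF-β differences, 0 of the 5 EC differences and 1 of the 2 IPFc differences were called in the same direction after subtraction.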

How the results depend on the processing

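The counts of called genes under TGF-β in epithelial libraries, under IPFc against TGF-β in epithelial libraries, between the fractions in vehicle and between the fractions in the response to TGF-β stayed within 1.5 times of the values given under all 13 alternatives. Without the mouse block that pairs libraries, the count was 1 for epithelial EC, 4 for epithelial IPFc, 2 for fibroblast EC, 0 for the difference in the response to EC and 0 for that to IPFc, and 14 of 51 single-gene results lost their call, all with the same sign. Subtraction gave 1 call for epithelial EC, 2 for epithelial IPFc, 0 for fibroblast EC, 5 for fibroblast TGF-β, 5 for fibroblast IPFc against TGF-β, 0 for the difference in EC and 1 for that in IPFc. It turned Itgb4 to 3.23 and Itga3 to 14.85 under TGF-β in fibroblasts, neither of them called, against vehicle levels left at 0 to 7.14 CPM for Itgb4 and at 0 for Itga3. Besides Itgb4 and Itga3, 26 of 51 single-gene results lost their call with the same sign. With no filter on low counts, which tests more genes, the counts were 10 for epithelial EC, 2 for fibroblast IPFc and 10 for the difference in EC. Fits of only the groups compared gave 3 for fibroblast IPFc and 9 for the difference in EC, and DESeq2 gave 8 for the difference in EC. The cause of these differences was not tested. Apart from subtraction, counts under the alternatives are given without the share of all genes called in the same fit. They do not show whether these genes or the whole fit gained or lost calls.

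Leaving out 1 mouse, or the fibroblast EC library of mouse 1 (chosen after seeing the data), gave 2 to 6 calls for epithelial EC, 5 to 10 for epithelial IPFc, 1 to 10 for fibroblast EC, 1 to 3 for fibroblast IPFc, 13 to 22 for fibroblast TGF-β, 0 to 7 for the difference in EC and 0 to 2 for that in IPFc. The fibroblast EC count was 5 without mouse 2, 1 without mouse 3 and 2 without mouse 4, and the fibroblast IPFc count was 3 without that EC library and 2 without mouse 1. Epithelial EC gave 3 calls without mouse 1 or 4 and 2 without mouse 2 or 3. For the difference in EC, 3 genes passed without mouse 2, 2 without mouse 3 and 0 without mouse 4, and for IPFc 1 passed without mouse 1 or 3 and 0 without mouse 2 or 4. Over the mice left out, the log2 fold change of epithelial Itgav with EC ranged from -0.054 to 0.12 and that of epithelial Itgb6 with IPFc from -0.050 to 0.12, none of them called.

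Depth limits the scarce chains most, since Itga4, Itgad, Itgal, Itgae, Itgam and Lamc3 had group means under 0.3 CPM throughout, and no change in them was detectable at this depth apart from what the tests above gave. The median log2 fold change of all genes differed between TMM and the size factors of DESeq2 by under 0.1 in every comparison (0.21 and 0.19 for the difference in TGF-β), and no single-gene call changed with the size factors.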
